A study of Mus musculus with 4 samples.

Results

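The m6A readers and erasers were 10 genes that encode proteins which bind N6-methyladenosine (m6A) in RNA or remove it. They comprised the YTH-domain readers Ythdf1, Ythdf2, Ythdf3, Ythdc1 and Ythdc2, the erasers Alkbh5 and Fto, and the IGF2BP proteins Igf2bp1, Igf2bp2 and Igf2bp3. A site belonged to a gene when it lay on the gene's strand between the start and end that the site lists give. This placed 1811 of 881997 distinct listed sites in the 10 genes, and each gene had sites in all 4 libraries. The samples were retinal organoids of the mouse, eye tissue that forms in culture from stem cells, taken at day 4 of differentiation in medium with 0.1 µM AGN. There were 2 wild-type (WT) libraries of the Rx:GFP line, which reports the eye field gene Rax by green fluorescence. The other 2 libraries came from a Mettl3 knockout (KO) of the same line that, per the labels' protocols, harboured a doxycycline-inducible HA-tagged METTL3. The labels give no other treatment for any library, and all 4 shared 1 batch label. Nothing in the labels says that the replicates of a genotype were separate cultures or clones, so no p-value here measures more than the spread between these libraries.

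METTL3 is the catalytic subunit of the methyltransferase that writes most m6A in messenger RNA. The cytoplasmic YTHDF proteins bind methylated transcripts and act in their decay and translation, YTHDC1 is the nuclear reader with roles in splicing and export, and YTHDC2 is a helicase known for its part in meiosis. IGF2BP1, IGF2BP2 and IGF2BP3 are KH-domain proteins that stabilise bound transcripts and are abundant in embryonic tissue. ALKBH5 and FTO are dioxygenases that demethylate adenosines. The transcripts of these genes can themselves carry m6A, and that was what the libraries measured here.

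The assay, GLORI, deaminates unmodified adenosine, which is then read as G, whereas m6A is still read as A. The level of a site is the share of its reads that carry A, and its coverage is the number of reads with A or G. The lists hold sites with 15 or more reads, of which 5 or more were unconverted, and with a level no lower than 0.1. No listed site had a site p-value above 0.004, by a test of the authors that is not given. Absence from a list can thus mean a level under 0.1, fewer than 5 unconverted reads, shallow coverage or a higher site p-value. The cases look the same, so absence alone does not show a level under 0.1. Sites also went missing between the WT libraries. Of sites at 0.9 or more in 1 WT list with 50 reads expected in the other, 38.0% and 42.5% over all genes were absent there. Where a site was missing, an expected coverage is given, which scales its coverage in the other genotype by the coverage of the gene in both libraries. Median coverage was 38 to 41 reads per library over all listed sites, inside a gene or not, and 51 to 54 reads at sites in the reader and eraser genes. The authors' conversion rate for these genes was 95.3% to 97.6% in the WT libraries and 95.4% to 98.1% in the KO libraries. The lists mark every Ythdf1 and Ythdf3 site as intronic, almost no Alkbh5 site, and some but not all sites of genes such as Ythdc1, and the mark was not used. The submitters' processing notes name mm10. Of listed sites in GRCm38 promoter windows only 776 of 3360 (23.1%) fell on A, whereas 121 of 121 sites in microRNA hairpins fell on A when placed by their offset in the lists' own features. The lists' positions thus did not follow GRCm38, and which build they use was left unsettled. Site and gene coordinates below are given as the lists have them.

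The clearest difference between the genotypes was in sites with a high level. Of 10 reader and eraser sites with a level of at least 0.5 and a coverage of at least 20 in both WT lists, 4 lay in Ythdf1, 3 in Ythdc1, 2 in Alkbh5 and 1 in Ythdf3. Neither KO list held 7 of the 10 (70%, Wilson 95% interval 39.7% to 89.2%), and the background over all genes was 83%. The other 3 were in 1 KO list each, at levels of 0.108 to 0.145. Among the 7 of these sites with 50 or more reads expected in both KO libraries, 4 were in neither KO list (57.1%, 25.0% to 84.2%; background 81.8%). In the reverse direction, 0 reader and eraser sites had a level of at least 0.5 in both KO lists. Over all genes 87 such KO sites existed, and the share of them in neither WT list was 42.5%. Wilson intervals cover counting error only, since reads can be PCR copies.

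A group of 12 positions allowed a direct reading of both genotypes, since they reached a level of 0.5 in a WT list and were also present in a KO list with 20 or more reads in each of them. The median level at these 12 sites was 0.634 in the WT and 0.151 in the KO, and 10 of the 12 lay under 0.2 in the KO. Over all genes 44.6% of such sites lay under 0.2 in the KO. Sites were picked here by a high value in one genotype, so a lower value in the other is in part built in. Picked the opposite way, by a high KO level, the share under 0.2 in the WT was 27.5% over all genes. Only 1 reader or eraser site met that reverse rule, at 0.625 in the KO and 0.357 in the WT.

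**Figure D1:**
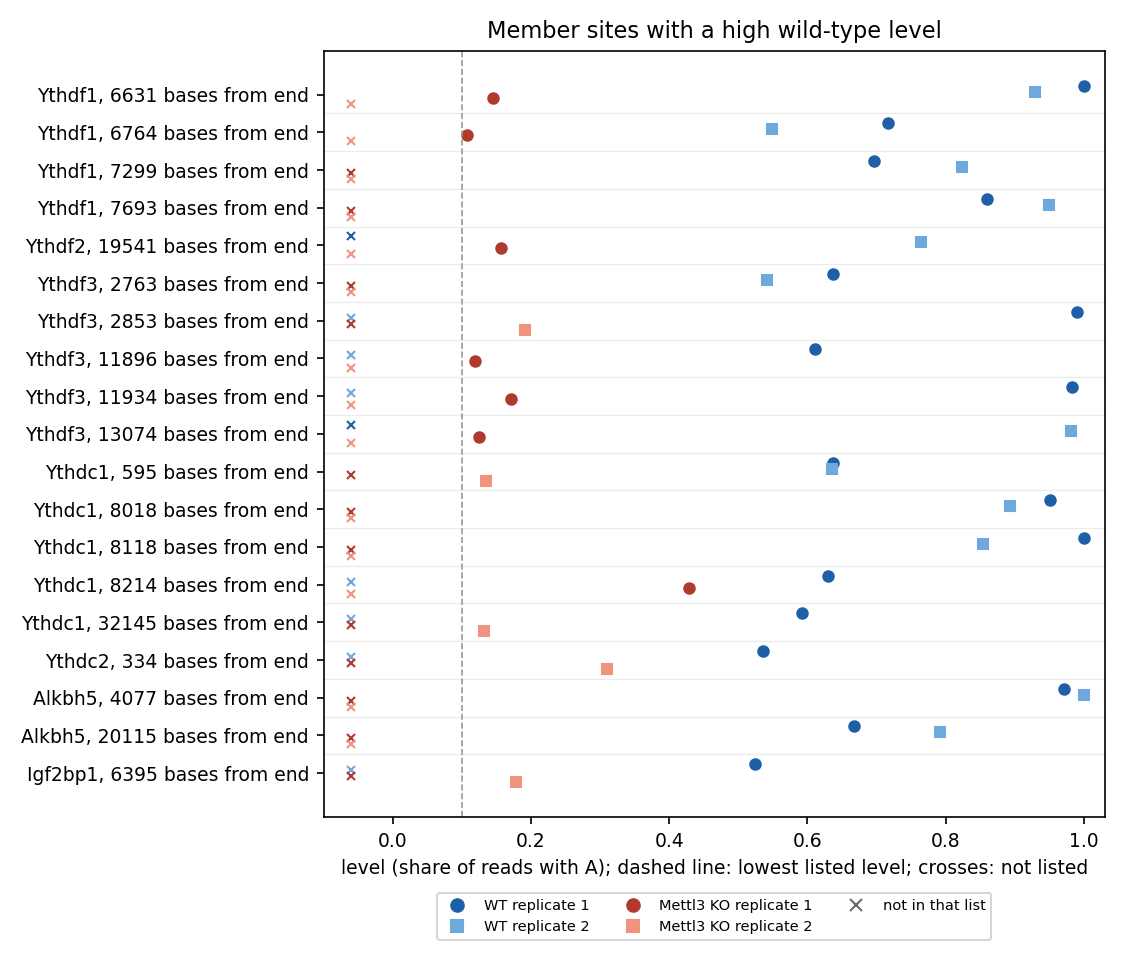
Level (share of reads with A, horizontal axis) in each of the 4 libraries at the reader and eraser sites that reached 0.5 in both WT lists, or in a WT list with a value in a KO list, named by gene and distance from the 3′ end of the gene. Blue symbols are WT and red symbols KO, replicate 1 as circles and replicate 2 as squares, crosses at the left mark a library whose list lacks the site, and the dashed line is the lowest listed level of 0.1. The KO symbols lie to the left of the WT symbols at every site with both, and 2 sites, in Ythdc1 and Ythdc2, have a KO level above 0.2.

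Ythdf1 (ENSMUSG00000038848, chromosome 2, 180546170 to 180562742, minus strand) encodes a reader best known for promoting translation, and it held the largest group of high WT sites. At position 180553863, 7693 bases from the 3′ end of the gene, 61 of 71 reads were unconverted in WT replicate 1 (level 0.859, Wilson 95% interval 76.0% to 92.2%) and 131 of 138 in WT replicate 2 (0.949, 89.9% to 97.5%). Neither KO list held it, at an expected coverage of 187 and 130 reads. At position 180552934 the levels were 0.716 (48 of 67 reads) and 0.549 (73 of 133 reads) in the WT and 0.108 (47 of 435 reads, 8.22% to 14.1%) in KO replicate 1. This position was thus far more deeply read in the KO library than in either WT library, and its level there was just above the lowest that the lists hold. At position 180552801 all 27 reads were unconverted in WT replicate 1 and 53 of 57 in WT replicate 2, against 12 of 83 in KO replicate 1 (level 0.145, 8.47% to 23.6%). At position 180547402, near the gene end, both WT levels were close together, at 0.416 (42 of 101 reads) and 0.413 (76 of 184 reads). It was in neither KO list, with 256 and 178 reads expected. Ythdf1 had 27 and 34 listed sites in the WT libraries and 21 and 33 in the KO libraries, so the total did not separate the genotypes. Of its 7 sites shared by the WT libraries 5 were in neither KO list and 2 in 1 KO list, and the KO libraries shared 0 Ythdf1 sites.

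Ythdf3 (ENSMUSG00000047213, chromosome 3, 16237376 to 16271201, plus strand), whose product works with the other YTHDF readers, had 57 and 79 listed sites in the WT and 47 and 78 in the KO. Its most deeply read WT site of those named, at position 16268265, had levels of 0.421 (170 of 404 reads) and 0.462 (287 of 621 reads). The site was missing from both KO lists although 619 and 483 reads were expected there. At position 16258223 the WT levels were 0.347 (25 of 72 reads) and 0.234 (32 of 137 reads), and KO replicate 1 had 0.112 (9 of 80 reads, 6.03% to 20.0%), so its interval overlapped that of WT replicate 2. The third of the named WT sites, 16268464, varied between the WT libraries, with 0.373 (19 of 51 reads) and 0.134 (9 of 67 reads). It was absent from the KO lists at an expected 71.8 and 56.1 reads. Further Ythdf3 positions were near complete in a single WT library and low in a single KO library. Position 16268348 had 195 of 197 reads unconverted in WT replicate 1 and 43 of 225 in KO replicate 2 (level 0.191, 14.5% to 24.7%). Position 16259267 had 58 of 59 reads unconverted in WT replicate 1 and 23 of 134 in KO replicate 1, and position 16258127 had 52 of 53 in WT replicate 2 and 9 of 72 in KO replicate 1. Each of these 3 was missing from the other WT list, at an expected 260, 121 and 52.9 reads. Of the 13 Ythdf3 sites shared by the WT libraries, 5 were also in 1 KO list. Sites shared by the KO libraries and in no WT list were low: position 16258361 had 0.178 and 0.170, and position 16237614 had 0.171 and 0.149.

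Ythdf2 (ENSMUSG00000040025, chromosome 4, 131912223 to 131939614, minus strand), the reader best known for directing methylated transcripts to decay, went the other way in site number. It had 13 and 18 listed sites in the WT and 26 and 25 in the KO, and its WT libraries shared 0 sites. The authors' coverage of the gene was 45.2 and 49.1 in the WT and 71.9 and 65.9 in the KO, and sites with 50 or more reads numbered 1 and 4 in the WT and 12 and 11 in the KO. The 1 Ythdf2 position with a high WT level and a KO value, 131931764, had 26 of 34 reads unconverted in WT replicate 2 and 8 of 51 in KO replicate 1 (0.765 and 0.157). The KO libraries shared 3 sites. At position 131932918 the KO levels differed beyond counting error, at 0.143 (14 of 98 reads, 8.70% to 22.6%) and 0.605 (69 of 114 reads, 51.4% to 69.0%). At position 131939281 they were 0.123 (15 of 122 reads) and 0.127 (13 of 102 reads). Both positions had 69.9 to 79.7 reads expected in the WT libraries, whose lists did not hold them.

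Ythdc1 (ENSMUSG00000035851, chromosome 5, 86952080 to 86984518, plus strand) carried 2 near complete WT sites 100 bases apart. At position 86976500 the levels were 0.951 (77 of 81 reads) and 0.893 (50 of 56 reads), and at position 86976400 they were 1 (30 of 30 reads) and 0.855 (47 of 55 reads). Neither site was in a KO list, at expected coverages of 106 and 109 reads at the first and 63.9 and 66.0 reads at the second. Position 86983923, which lies 595 bases from the gene end, had closely matching WT levels of 0.636 (28 of 44 reads) and 0.635 (40 of 63 reads), and 0.134 (9 of 67 reads, 7.23% to 23.6%) in KO replicate 2. Of the 6 Ythdc1 sites shared by the WT libraries 4 were in neither KO list and 2 in 1 KO list. The second of these 2, position 86984451, did not differ in level, at 0.181 (13 of 72 reads) and 0.170 (8 of 47 reads) in the WT and 0.178 (18 of 101 reads) in KO replicate 1. Position 86975875 had 0.208 and 0.298 in the WT with 176 and 182 reads expected in the KO, and position 86984094 had 0.115 and 0.116 with 634 and 655 reads expected. At that last site the WT level was so near the lowest listed level that a small fall would remove it from a list. Ythdc2 (ENSMUSG00000034653, chromosome 18, 44960813 to 45022791, plus strand) was thinly covered, with a gene coverage of 29.0 to 34.0 over the 4 libraries, and had 6, 24, 15 and 11 listed sites in WT replicates 1 and 2 and KO replicates 1 and 2. No Ythdc2 site was shared by the libraries of either genotype. At position 45022457 the level was 0.536 (15 of 28 reads) in WT replicate 1 and 0.310 (13 of 42 reads) in KO replicate 2, with overlapping intervals of 35.8% to 70.5% and 19.1% to 46.0%.

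The erasers differed from each other. Alkbh5 (ENSMUSG00000042650, chromosome 11, 60427207 to 60449338, plus strand) had the most complete shared site of the 10 genes, at position 60445261, with 66 of 68 reads unconverted in WT replicate 1 (level 0.971, 89.9% to 99.2%) and 138 of 138 in WT replicate 2 (lower bound 97.3%). It was in neither KO list, where 117 and 101 reads were expected. Its other high WT site, 60429223, had 22 of 33 and 19 of 24 reads unconverted and also no KO entry, at an expected 34.3 and 29.7 reads. Position 60445484 had 0.250 (15 of 60 reads) and 0.293 (46 of 157 reads) in the WT, and position 60445872 had 0.160 (8 of 50 reads) and 0.111 (13 of 117 reads). All 8 Alkbh5 sites shared by the WT libraries were in neither KO list. In the KO the best supported shared site, 60447169, was low, at 0.137 (13 of 95 reads) and 0.228 (13 of 57 reads). Another KO-shared site, 60446351, was not lower than in the WT, at 0.351 (13 of 37 reads) and 0.611 (11 of 18 reads) against 0.400 (8 of 20 reads) in WT replicate 2.

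Fto (ENSMUSG00000055932, chromosome 8, 92040153 to 92395067, plus strand), by contrast, had 0 sites at a level of 0.5 with 50 reads in either WT library. It had 44 and 46 listed sites in the WT and 53 and 51 in the KO, and only 2 were shared by the WT libraries. Of these the named one, 92394565, lay 502 bases from the gene end with levels of 0.119 (10 of 84 reads) and 0.116 (14 of 121 reads). The other, 92393801, had 0.324 (12 of 37 reads) and 0.254 (17 of 67 reads). Both were in neither KO list. Only 7 bases from the latter, the KO-shared site 92393794 had similar levels, at 0.260 (20 of 77 reads, 17.5% to 36.7%) and 0.369 (24 of 65 reads, 26.2% to 49.1%). It was in no WT list, where 59.9 and 74.8 reads were expected. The median position of the Fto sites differed between the genotypes. Their median distance from the gene end was 2089.5 and 2034.5 bases in the WT and 143619 and 114735 bases in the KO. There were 20 and 20 WT sites and 30 and 31 KO sites beyond 5000 bases from the end, in a gene of 354915 bases, whereas sites within 5000 bases numbered 24, 26, 23 and 20. Sites near the end thus outnumbered the far ones in both WT libraries and in neither KO library. A modest change in counts therefore moved the median from the near group to the far one. Of the 8 reader and eraser genes with 20 sites in every list, Fto was the 1 whose median distance was larger in both KO libraries than in both WT libraries, against a background of 15.2%. In 2 of the 8 it was smaller in both KO libraries (background 20.1%).

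Igf2bp1 (ENSMUSG00000013415, chromosome 11, 95847989 to 95896766, minus strand) had 321 distinct listed sites, the most of the 10 genes, with 87 and 95 in the WT and 83 and 97 in the KO. It also held all 4 reader and eraser sites that were in every list, and these were the only ones whose level could be tested across the libraries. A site whose level fell under 0.1 in the KO could not enter such a test. At position 95849401 the levels were 0.228 and 0.263 in the WT and 0.230 and 0.244 in the KO. At position 95849406 they were 0.203 and 0.228 in the WT and 0.199 and 0.208 in the KO, and at position 95849376 they were 0.130, 0.138, 0.135 and 0.142 in the same order. The fourth site, 95888733, had 0.367 (11 of 30 reads) and 0.478 (11 of 23 reads) in the WT and 0.492 (29 of 59 reads) and 0.477 (42 of 88 reads) in the KO. The genotypes overlapped at all 4 sites. In edgeR's quasi-likelihood test across 1557 sites, 0 of these 4 passed an adjusted p of 0.05 (adjusted p 0.904 to 0.982), and 0 of the 4 passed an unadjusted p of 0.05 (0.392 to 0.662). The background was 2.63% of sites lower in the KO and 0% higher by the same test. Over all sites, 90 were lower and 29 higher at an unadjusted p under 0.05. Fisher's exact test, run on counts summed per genotype and so blind to the spread between libraries, called 1 of the 4, position 95849406 (adjusted p 0.0173). Over all 1557 sites Fisher's test called 117 lower and 51 higher, against 41 and 0 by edgeR. Summed over the gene, the change in log2 odds was -0.07 and did not pass (edgeR adjusted p 0.970; background 5.65% of 726 genes lower and 0.551% higher).

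A group of 3 of these Igf2bp1 sites formed a cluster within 30 bases that was read far more deeply than the rest of the gene. The deepest had 10362 and 13289 reads in the WT and 7593 and 9462 in the KO, or 51.5, 51.9, 45.8 and 59.9 times the coverage that the lists give for the gene. No other Igf2bp1 site exceeded 656, 575, 319 and 556 reads in the same libraries. The depth stood out in all 4 libraries alike, and where those reads came from was not tested.

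**Figure D2:**
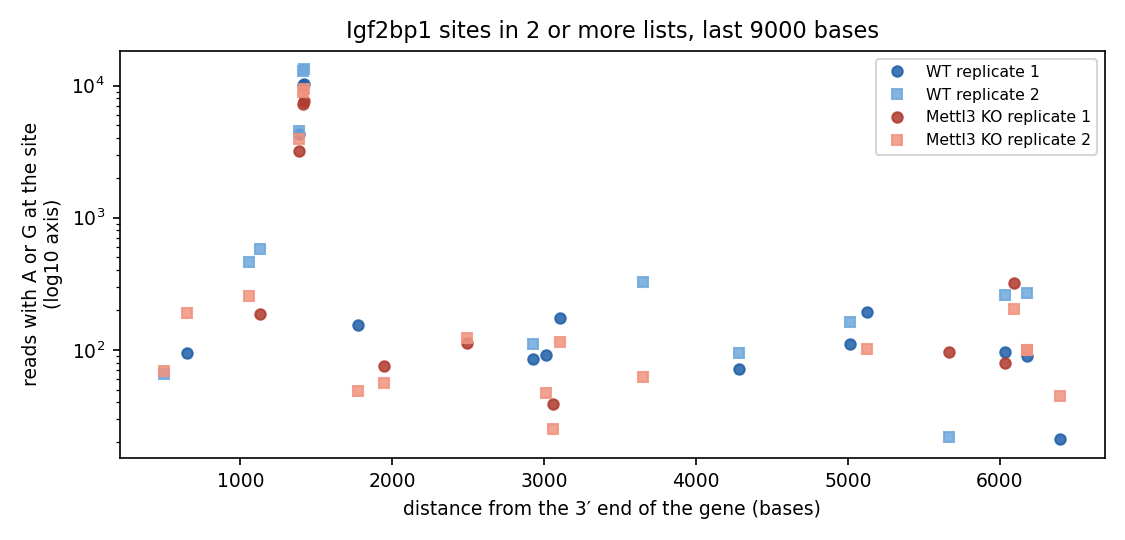
Coverage (reads with A or G, log10 axis) against distance from the 3′ end of Igf2bp1 for its sites present in at least 2 lists, WT in blue and KO in red, replicate 1 as circles and replicate 2 as squares. The cluster of 3 sites 1387 to 1417 bases from the end stands between 3205 and 13289 reads in every library, while all other points are at 575 reads or fewer.

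Outside the cluster most shared sites of the IGF2BP genes had low levels, with exceptions such as Igf2bp1 95888733 above. In Igf2bp1 the named WT site 95852270 had 0.208 (15 of 72 reads) and 0.168 (16 of 95 reads), and the KO-shared sites 95850478 and 95849934 had 0.159 and 0.374, and 0.187 and 0.250. In Igf2bp2 (ENSMUSG00000033581, chromosome 16, 21877759 to 21982049, minus strand) the named WT sites varied between the WT libraries. Position 21878884 had 0.116 (22 of 190 reads) and 0.349 (143 of 410 reads), position 21877866 had 0.115 and 0.347, and position 21879364 had 0.271 and 0.127. All 7 WT-shared Igf2bp2 sites were missing from the KO lists, as were the 7 of Igf2bp3. The KO-shared Igf2bp2 sites 21878957 and 21879383 were as uneven, at 0.437 and 0.129, and 0.381 and 0.180. In Igf2bp3 (ENSMUSG00000029814, chromosome 6, 49062157 to 49191891, minus strand) the WT sites 49062880 and 49062896, 16 bases apart, had 0.163 and 0.164, and 0.171 and 0.145. Position 49191566 had 0.122 and 0.276. The KO-shared sites 49064725 and 49064192 lay in the same low range, at 0.138 and 0.143, and 0.132 and 0.145. Low sites were thus shared within the KO as well as within the WT in these 3 genes. Higher levels occurred in single libraries of either genotype. Chosen after their values were seen, they included Igf2bp2 21878391 (56 of 56 reads in WT replicate 1), Igf2bp3 49189516 (45 of 54 in WT replicate 2) and Igf2bp3 49106296 (62 of 68 in KO replicate 2). Sites at a level of 0.5 or more at any coverage numbered 8 and 10 in the WT and 18 and 11 in the KO for Igf2bp3.

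The only stretch of these transcripts whose bases could be read was the hairpin of Mir3063, which lies inside Igf2bp1 at 95854118 to 95854209 on the minus strand as the lists give it. It is shown because it lets the listed adenosines be seen in their sequence. Bases 32 to 60 of the 92-base hairpin, 5′ to 3′, from RefSeq (GRCm38.p6), follow with the listed adenosines at positions 44 and 46 in capitals.
Mir3063 hairpin, bases 32 to 60: cacacugucuugAgAacaauguuccagug
Position 46 had 19 of 90 reads unconverted in WT replicate 1 and 14 of 99 in KO replicate 2. Position 44 had 38 of 270 in WT replicate 2 and 14 of 99 in KO replicate 2, and a site at position 22 had 8 of 55 in WT replicate 1. Their 5-base contexts, UGAGA at position 44, AGAAC at 46 and AGAUC at 22, do not match DRACH, the consensus in which METTL3 methylates. Levels at these sites were 0.141 to 0.211 and did not separate the genotypes. Over all hairpins with a listed site and a readable context, 15 of 108 sites (13.9%) matched DRACH.

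Over the 10 genes, the number of listed sites did not separate the genotypes. There were 449 and 575 sites in the WT and 485 and 497 in the KO, or 512 ± 89.1 and 491 ± 8.49 (SD, n = 2 each; exact permutation p = 1, two-sided). Most sites did not recur, and 90.5% of the 1811 were in 1 list only. The WT libraries shared 60 sites and the KO libraries 32. Of 59 WT-shared sites with a coverage of at least 20, 44 were in neither KO list (74.6%, Wilson 95% interval 62.2% to 83.9%), and the background over all genes was 83.3%. The reverse share, of KO-shared sites in neither WT list, was 24 of 31 (77.4%, 60.2% to 88.6%), beside a background of 72.8%. With 50 or more reads expected in both libraries of the other genotype, the shares were 32 of 46 from WT to KO (69.6%; background 80.9%) and 16 of 22 from KO to WT (72.7%; background 68%). The shares come from the same 4 lists and their intervals cover counting error over sites, so they are no test between the genotypes.

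Strong sites were fewer in both KO libraries. With at least 50 reads and a level of at least 0.5, the reader and eraser genes had 8 and 19 sites in the WT and 2 and 4 in the KO. Both KO counts lay below both WT counts, and the exact permutation p was 0.333, which is the smallest that 2 libraries against 2 can give. Over all genes such sites numbered 4519 and 6546 in the WT and 1184 and 1627 in the KO. The KO to WT ratio was 0.254 over all genes and 0.222 in the reader and eraser genes, so the fall was not particular to them. By gene, both KO counts were below both WT counts in 4 of 10, and the background was 30.6% of genes with such a site. These were Ythdf1 (2 and 5 against 0 and 0), Ythdf3 (3 and 2), Ythdc1 (1 and 5) and Alkbh5 (1 and 2), all with 0 in both KO libraries. The other genes did not separate in this direction. Fto had 0 and 0 in the WT and 2 and 0 in the KO, Igf2bp3 0 and 1 against 0 and 2, Ythdf2 0 and 1 against 0 and 1, and Igf2bp2 1 and 1 against 0 and 1. At 100 or more reads and a level of 0.3 or more, 5 and 10 WT sites stood against 1 and 3 KO sites (exact permutation p = 0.333). Both KO counts were lower in 2 of 7 genes with such a site, beside a background of 35.4%. The KO to WT ratio of these counts was 0.267 in the reader and eraser genes and 0.206 over all genes.

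**Figure D3:**
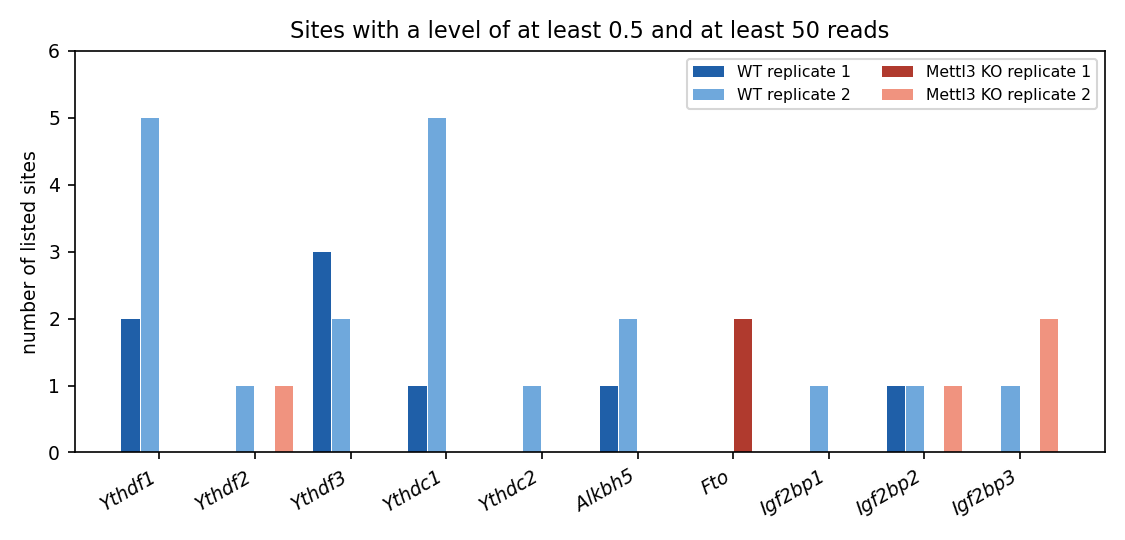
Number of listed sites with a level of at least 0.5 and at least 50 reads (vertical axis) in each reader and eraser gene, 1 bar per library, WT in blue and KO in red, with no bar where the count was 0. Ythdf1, Ythdf3, Ythdc1 and Alkbh5 have bars in both WT libraries and none in the KO libraries.

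Position along the gene was compared over all sites of the group. The median distance of the sites from the 3′ end was 6199 and 7299 bases in the WT and 6383 and 6489 bases in the KO (exact permutation p = 1). As a mean of the 10 medians per gene it was 6892 and 10760 bases in the WT and 21887 and 18696 bases in the KO libraries (exact permutation p = 0.333). Without Fto that mean was 7425 and 11730 in the WT and 8362 and 8025 bases in the KO libraries (exact permutation p = 1), so the larger KO values came from Fto. The share within 1000 bases of the end was 14.5% and 9.04% in the WT and 9.07% and 14.5% in the KO.

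Coverage of the genes was compared next, as the closest measure of RNA amount in the lists. The authors' gene coverage was divided by the median, per library, of the genes with a value in all 4 lists, and values are compared within a gene only. Ythdf1, Ythdf2 and Ythdc1 rose in the KO. Relative coverage of Ythdf1 was 2.19 and 2.37 in the WT and 4.23 and 3.39 in the KO (log2 change 0.73 ± 0.18, SE; limma adjusted p 0.0340). Ythdf2 had 0.898 and 0.857 in the WT and 1.35 and 1.42 in the KO (log2 change 0.66 ± 0.15; limma adjusted p 0.0270). Ythdc1 had 1.69 and 1.65 in the WT and 2.56 and 3.05 in the KO (log2 change 0.74 ± 0.17; limma adjusted p 0.0257). For each of the 3 both KO libraries stood above both WT libraries by more than the spread within a genotype. Thus 3 of 9 genes tested were called higher, and the background was 3.04% of 8281 genes. None was called lower, beside a background of 3.39%. The calls were marginal: without any 1 of the 4 libraries 0 of the 9 passed, with adjusted p from 0.0541 to 0.155 for these 3 genes. Without centring on the median 0 of the 9 passed either, at adjusted p of 0.263 to 0.314 and log2 changes of 0.55 to 0.63 for the 3. That setting put the median change of all genes at -0.13 and called 72 genes higher and 198 lower, against 252 and 281 with centring.

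The other readers and erasers did not pass. Ythdf3 had 2.15 and 2.31 in the WT and 2.75 and 2.47 in the KO (log2 change 0.23, limma adjusted p 0.453). Alkbh5 had 1.29 and 1.43 against 1.60 and 1.60 (0.24, limma adjusted p 0.400), and Fto had 1.71 and 1.87 against 2.23 and 1.88 (0.19, limma adjusted p 0.535). Ythdc2 had 0.676 and 0.590 against 0.543 and 0.713, with overlapping groups. In the IGF2BP genes the KO values lay below the WT values without passing the test. Igf2bp1 had 4.00 and 4.47 in the WT and 3.11 and 3.41 in the KO (log2 change -0.38 ± 0.18; limma adjusted p 0.223). Igf2bp2 had 3.04 and 3.77 in the WT and 2.20 and 2.19 in the KO (log2 change -0.63 ± 0.18; limma adjusted p 0.0561). It was called lower when only genes at or above the median coverage were fitted (limma adjusted p 0.0118) and when each library was centred on all its own genes (limma adjusted p 0.0464). Those settings called more genes lower over all genes, 446 of 4141 and 387 of 8281, against 281 of 8281 in the main fit. Igf2bp3 had several coverage values per list and was left out of the test, and its most frequent values were 4.10 and 4.37 in the WT and 2.82 and 2.73 in the KO. In a fit that kept such genes its log2 change was -0.61 ± 0.17 (limma adjusted p 0.0693). Both KO libraries were above both WT libraries in 6 of 9 genes tested (background 24.7%) and below them in 2 of 9 (background 29.4%).

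**Figure D4:**
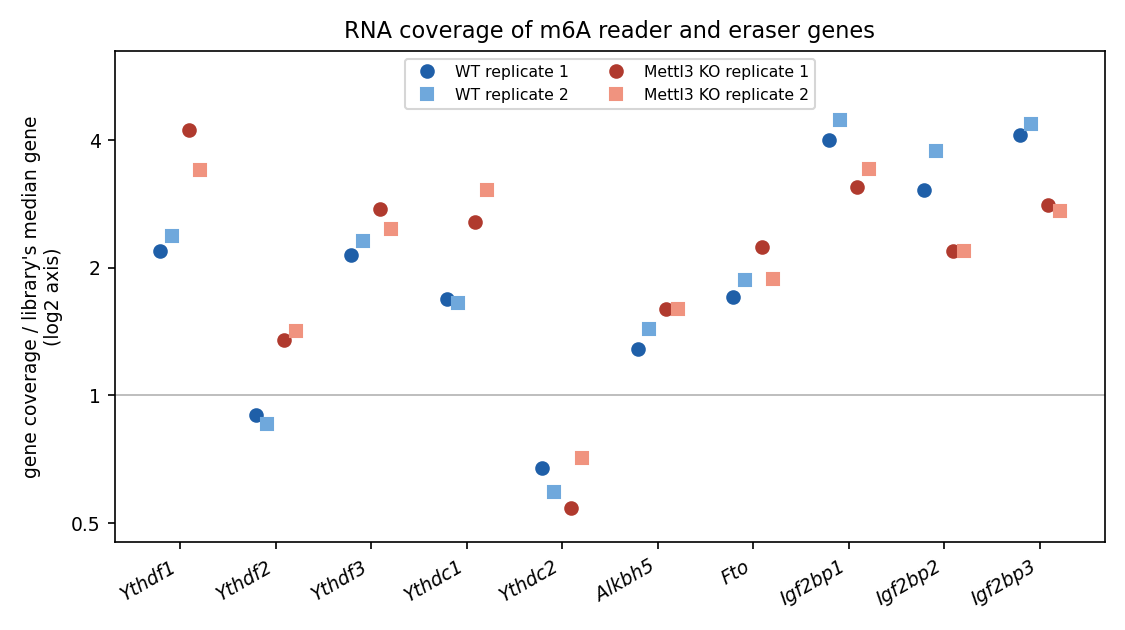
Gene coverage divided by the library's median gene (log2 axis) for the 10 reader and eraser genes, WT in blue and KO in red, replicate 1 as circles and replicate 2 as squares, with a line at the median gene. The red symbols lie above the blue ones in Ythdf1, Ythdf2, Ythdf3, Ythdc1, Alkbh5 and Fto and below them in Igf2bp1, Igf2bp2 and Igf2bp3, and they overlap in Ythdc2.

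The promoters of the 3 genes that rose are shown because each was called higher in coverage, and a part of the promoters in this was not tested. Each sequence is the 250 bases before the gene's start, 5′ to 3′ on the gene's strand, from RefSeq (GRCm38.p6), whose table held 7 of the 10 genes. These GRCm38.p6 coordinates cannot be set against the positions in the lists. The Ythdf1 window begins at 180920937, for example, whereas the lists end that gene at 180562742. Capitals mark matches, on either strand, to the GC box GGGCGG (reverse CCGCCC), the CCAAT box (CCAAT, reverse ATTGG) and the TATA box (TATAAA, reverse TTTATA).
Ythdf1, chr2:180920937-180921186, minus strand: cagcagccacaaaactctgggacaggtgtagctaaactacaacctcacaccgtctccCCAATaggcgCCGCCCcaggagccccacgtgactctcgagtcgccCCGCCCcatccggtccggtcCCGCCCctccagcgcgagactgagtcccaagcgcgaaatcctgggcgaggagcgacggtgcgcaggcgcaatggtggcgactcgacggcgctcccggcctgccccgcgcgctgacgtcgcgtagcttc
Ythdf2, chr4:132212257-132212506, minus strand: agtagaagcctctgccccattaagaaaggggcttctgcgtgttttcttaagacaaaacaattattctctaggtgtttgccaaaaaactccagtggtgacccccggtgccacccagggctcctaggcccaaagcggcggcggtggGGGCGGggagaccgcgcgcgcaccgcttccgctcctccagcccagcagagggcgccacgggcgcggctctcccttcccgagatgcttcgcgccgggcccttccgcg
Ythdc1, chr5:86804016-86804265, plus strand: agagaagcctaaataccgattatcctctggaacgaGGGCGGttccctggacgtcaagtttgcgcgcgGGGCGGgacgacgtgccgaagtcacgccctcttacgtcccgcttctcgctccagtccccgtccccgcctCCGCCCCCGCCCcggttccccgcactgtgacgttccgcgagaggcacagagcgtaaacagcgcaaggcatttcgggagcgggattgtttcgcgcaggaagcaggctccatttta
The Ythdf1 window had 3 GC boxes and 1 CCAAT box, the Ythdf2 window 1 GC box, and the Ythdc1 window 4 GC boxes, of which a pair are adjacent. None of the 3 windows had the TATA letters. Of all 32851 promoters of that length 32.7% held a GC box, 33.9% a CCAAT box and 12.4% a TATA box. The windows of Alkbh5 and Igf2bp2 also held 2 GC boxes each, so the match was not limited to the genes that rose. Those of Fto and Igf2bp3 held 0.

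Other genes of the m6A pathway were compared in the same fit. Among the writers, 0 of 11 tested were called in either direction, with a median log2 change of 0.26. The largest were Wtap (0.86, limma adjusted p 0.0572), a regulatory subunit of the methyltransferase, and Rbm15 (0.56, limma adjusted p 0.0647), which recruits it to RNA. Mettl3 itself had 1.01 and 0.801 in the WT and 1.16 and 1.04 in the KO (0.29, limma adjusted p 0.316), so its coverage did not mark the knockout, whose lesion the labels do not place. Of 10 other m6A binding or effector genes 1 was lower, Rbmx (log2 change -0.89, limma adjusted p 0.0107), which encodes the RNA-binding protein hnRNP G, and 0 were higher. Decay and translation partners had 0 calls among 7 tested and the reference genes 0 among 3. The log2 changes of the reference genes were all negative, with a median of -0.24. Actb had 11.9 and 16.2 in the WT and 9.27 and 8.60 in the KO (-0.64, limma adjusted p 0.0962), and Gapdh had 7.96 and 7.52 against 7.30 and 5.84. The 3 genes whose relative coverage was nearest to that of Ythdc1 over the 4 libraries were Wfdc2, H2-K1 and Rnf34, at Euclidean distances of 0.213, 0.233 and 0.262 on the log2 scale.

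Cell type markers differed between the genotypes alongside these coverages. A gene has a coverage value only in lists that hold a site of it, and missing values add nothing to the sums below. The sums can thus cover different genes in the WT and the KO, and a missing value does not show that RNA was absent. Of 5 eye field genes tested 4 were lower in the KO, with a median log2 change of -2.03, and their summed relative coverage was 34.0 and 35.4 in the WT and 7.46 and 7.94 in the KO. Rax had no listed site in either KO list, and Six6 had none in any list, while Rax, Six3, Lhx2 and Pax6 were covered in both WT libraries. Pluripotency and early epiblast genes had 4 lower of 5 tested, with sums of 10.2 and 11.3 against 6.18 and 5.14. Midbrain, hindbrain and dorsal genes had 1 higher, Wnt1, of 3 tested, with sums of 2.41 and 2.05 against 5.23 and 4.60. Neural progenitor genes had 1 higher (Hes5) and 1 lower (Sox2) of 5 tested, with sums of 18.5 and 19.2 against 15.2 and 13.9. Of the neural crest, surface ectoderm and neuron genes 1 was tested in each list, and Krt18 was lower. Pax3 (0.998 and 0.744) and Tfap2b (0.703 and 0.355) had a coverage value in both KO libraries and in neither WT library, and Pax7 (0.621) in KO replicate 1 only. The mesoderm and endoderm genes T, Mesp1, Sox17 and Gata6 had no listed site in any library. Tbx6, Foxa2 and Gata4 of that list had sites in the WT and none in the KO, and the summed coverage of the list was 0.459 and 0.833 in the WT. The part of these differences in the reader and eraser coverages was not tested. In bulk libraries fewer cells of a type and less RNA per cell cannot be told apart.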

How the data were processed

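GLORI libraries of 2 WT and 2 KO organoid samples were analysed, grouped by their titles. The authors deposited 1 site list per library, with counts of reads with A or G and with A, the level as a fraction, a p-value per site from a test not given in the sources used here, and, per the file headers, a conversion fraction and coverage signal per gene. The aligner and caller are not given in the sources used here. Values spanning whole chromosomes were not taken as gene values.

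Levels were tested with edgeR 4.0.16 (R 4.3.3) on unconverted and converted counts of sites with at least 20 reads in all 4 lists, and gene coverage with limma 3.58.1 on the log2 scale without a pseudocount. Benjamini-Hochberg adjustment ran over all sites or genes tested, at a threshold of 0.05. Per-library values were compared with exact permutation tests (SciPy 1.17.1). Scripts were tested on simulated data. Sites given in full were, per gene, the up to 3 highest shared WT sites and up to 2 highest KO-only shared sites with at least 50 reads, every site in all 4 lists, and the sites at 0.5 or more shown in the plot of high WT sites. The members and lists were chosen with earlier results of these data known, and the sites of that plot after their values were seen. Alternatives covered minima of coverage and level, other tests, centring, filters, a replicate block and leaving out each library.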

Additional observations from a re-analysis of the deposited data

How the results depend on the processing

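The ratio of listed sites, KO over WT, was 0.854 to 1.09 with each library left out, and above 1 without WT replicate 2. The difference in median distance from the gene end was -313 bases, ranged from -863 to 237 with each library left out, and was 11465.8 bases as a mean of medians per gene, and -1384 bases by that mean without Fto, an alternative chosen after seeing the data. The share of WT-shared sites in neither KO list was 83.1% to 88.2% with each library left out, since fewer lists then define a shared site or its recurrence, and 69.6% to 75.6% under the minima tried. The ratio of well covered sites at a level of 0.3 or more stayed below 1 under every minimum of coverage and level tried, at 0 to 0.472, and at 0.133 to 0.4 with each library left out.

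Fisher's exact test gave 1 site and 1 gene with a changed level, both in Igf2bp1, where edgeR gave 0. Over all genes it called 117 sites lower and 51 higher of 1557, and 85 genes lower and 47 higher of 726. With each library left out, the count of genes with a changed pooled level was 0 to 1. Without KO replicate 2 this was Ythdf1 (log2 odds change -4.37, edgeR adjusted p 0.0464) and without KO replicate 1 Ythdc1 (-3.47, edgeR adjusted p 0.0356), neither of which has a site in all 4 lists. Those fits called 81 of 1726 and 194 of 1669 genes lower, and the lone KO library was assumed to vary like the WT pair. Over all genes, fitting only genes at or above the median coverage called 336 higher and 446 lower of 4141. Centring on each library's own genes called 228 higher and 387 lower of 8281. The count of reader and eraser genes with changed coverage was 3, and it was 4 (3 higher, and Igf2bp2 lower) with each of these settings. It was 0 without centring, 0 at an adjusted p of 0.001 and 0 with any 1 library left out. Ythdc2, which was not called, had a log2 change of -0.02, and one of -0.22 to 0.17 with each library left out, above 0 without KO replicate 1 (0.17) and without WT replicate 1 (0.07).

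Replicate numbers did not pair the libraries (correlation of deviations -0.0275 over 8281 genes), and the fit with a replicate block gave 3 genes with changed coverage, 0 of 4 sites and 0 of 1 gene with a changed level. Over all genes the coverage calls were 252 higher and 281 lower, 72 and 198 without centring, 6 and 18 at an adjusted p of 0.001, and 48 and 58, 98 and 86, 286 and 226, and 168 and 177 without KO replicates 1 and 2 and WT replicates 1 and 2. Coverage of 15 reads, 5 unconverted reads, a level of 0.1 and a site p-value of 0.004 bound what any list can show.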

Other observations

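Near complete WT sites did not always recur. Of sites with a level of at least 0.9 and 50 reads in WT replicate 1, and 50 or more reads expected in WT replicate 2 (here scaled from WT replicate 1 by gene coverage), the latter's list lacked 3 of 5 in the reader and eraser genes and 38.0% of 856 over all genes. From WT replicate 2 to WT replicate 1 the counts, scaled from WT replicate 2 in the same way, were 0 of 2 and 42.5% of 1022. At Ythdf3, position 16268348 (195 of 197 reads unconverted in WT replicate 1) was absent from WT replicate 2, while listed neighbours 83 and 93 bases away had 621 and 651 reads there. These values are given without a cause, which was not tested.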
